A study of Mus musculus with 10 samples.

Results

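The genes described here are 10 members of the bone morphogenetic protein (BMP) pathway, chosen by name from the 56748 genes of the count table. They are the ligands Bmp2, Bmp4 and Bmp6, the secreted antagonists Grem1, Nog and Chrd, the target genes Id1, Id2 and Id3, and the intracellular inhibitor Smad6, and all 10 passed the filter on low counts. In GENCODE M21 (GRCm38) all are protein-coding, with Bmp2, Grem1 and Id1 on chromosome 2, Id3 on 4, Smad6 on 9, Nog on 11, Id2 on 12, Bmp6 on 13, Bmp4 on 14 and Chrd on 16. Poly(A) RNA was sequenced in bulk from 3xR cells, a line of mouse embryonic stem cells, at day 14, isolated by a reporter named for Col2a1 (eGFP) or for Prg4 (tdTomato). The 3 groups were Prg4-tdTomato+ cells from cultures given Fsk (3 libraries, numbered 1, 4 and 5), Prg4-tdTomato+ cells from cultures given DMSO, the solvent (3 libraries, numbered 1, 3 and 5), and Col2a1-eGFP+ cells from DMSO cultures (4 libraries, numbered 1, 3, 4 and 5). The labels do not spell out Fsk, an abbreviation commonly used for forskolin, which activates adenylyl cyclase and so raises cAMP. All libraries come from 1 cell line, and the labels do not say whether they are separate cultures, so the p-values measure the spread between these libraries, which may be technical. No library of eGFP+ cells given Fsk was analysed here, so reporter and treatment cannot be told apart between tdTomato+ Fsk and eGFP+ DMSO cells.

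BMPs are secreted dimers of the TGF-beta superfamily that bind paired type I and type II serine/threonine kinase receptors. The receptors phosphorylate receptor SMADs, which enter the nucleus with Smad4 and switch on targets such as the Id genes and Smad6. Id proteins lack a DNA-binding domain and hold back basic helix-loop-helix factors by pairing with their E-protein partners, while Smad6 closes a negative feedback loop inside the cell. Gremlin 1, noggin and chordin close the pathway from outside by binding the ligands. In the limb, BMP signals promote cartilage differentiation and also joint-region cell death, and antagonists such as noggin are needed for joints to form.

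Total counts ranged from 15355459 to 18988782 in tdTomato+ Fsk libraries, from 18023599 to 20408696 in tdTomato+ DMSO libraries and from 15561217 to 20391156 in eGFP+ DMSO libraries. The libraries differed in complexity: the number of genes with a read ranged from 16626, in eGFP+ DMSO 3, to 30158, in tdTomato+ DMSO 5, and TMM scaling factors ranged from 0.683 to 1.39 in the same libraries. Col2a1, the gene of the main cartilage collagen, averaged 33.6 ± 17.8 CPM in tdTomato+ Fsk cells, 220 ± 157 CPM in tdTomato+ DMSO cells and 1681 ± 995 CPM in eGFP+ DMSO cells (SD, n = 3, 3 and 4). Prg4, the gene of lubricin, was near the limit of detection in all groups, with 11 to 14, 12 to 24 and 0 to 37 reads in the same order, so the tdTomato label could not be checked on the endogenous transcript. Pde4b, a phosphodiesterase gene induced by cAMP, averaged 79.3 ± 26.2 CPM in tdTomato+ Fsk cells, against 7.80 ± 4.04 CPM in tdTomato+ DMSO cells, and differed between them (log2 fold change 3.34, SE 0.47, edgeR's quasi-likelihood test with Benjamini-Hochberg adjustment, adjusted p = 0.0118). It was 1 of 8 genes in a list of cAMP response genes, of which 3 were higher past the threshold in that comparison, 4 had negative values without passing, and the sum overlapped between the groups, at 654 to 745 CPM with Fsk and 616 to 1154 CPM with DMSO.

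The promoters of 3 genes are shown because these genes carry patterns described below: Grem1 had the lowest p of the 10 between reporters in DMSO, and Id3 and Smad6 are targets whose levels move together over the libraries. Each runs 5′ to 3′ on the gene's strand from 250 bases before to 30 bases after the RefSeq start (RefSeq, GRCm38.p6), and lies at chr2:113758619-113758898 (minus strand), chr4:136143572-136143851 (plus strand) and chr9:64022030-64022309 (minus strand). Capitals mark matches to the motifs searched.
Grem1: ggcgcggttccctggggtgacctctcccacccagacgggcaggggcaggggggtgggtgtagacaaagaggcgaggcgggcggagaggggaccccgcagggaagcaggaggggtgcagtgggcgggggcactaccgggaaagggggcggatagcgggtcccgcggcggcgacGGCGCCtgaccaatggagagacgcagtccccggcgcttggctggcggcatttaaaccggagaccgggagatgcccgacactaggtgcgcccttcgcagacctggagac
Id3: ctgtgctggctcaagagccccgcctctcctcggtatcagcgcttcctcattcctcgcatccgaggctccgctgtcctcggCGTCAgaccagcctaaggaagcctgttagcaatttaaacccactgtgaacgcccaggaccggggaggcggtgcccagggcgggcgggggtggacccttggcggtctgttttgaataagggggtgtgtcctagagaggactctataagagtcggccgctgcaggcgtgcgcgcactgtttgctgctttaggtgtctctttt
Smad6: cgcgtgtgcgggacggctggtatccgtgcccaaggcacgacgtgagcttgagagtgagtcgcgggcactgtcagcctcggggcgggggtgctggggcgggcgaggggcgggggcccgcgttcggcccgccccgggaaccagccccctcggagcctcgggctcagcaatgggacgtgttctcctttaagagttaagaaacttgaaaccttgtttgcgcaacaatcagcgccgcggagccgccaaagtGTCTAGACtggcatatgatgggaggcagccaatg
The capitals are GGCGCC, a GC-rich SMAD element, in Grem1, beginning 78 bases before the start. In Id3 they are the reverse complement of TGACG, part of the cAMP response element, beginning 170 bases before the start. In Smad6 they are GTCTAGAC, the palindrome to which SMAD proteins bind in vitro, beginning 4 bases before the start.

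The set of RefSeq promoters used here held 7 of the 10 genes, and Bmp2, Nog and Id1 were not in it. In windows of 300 bases (250 before and 50 after the start, both strands), GTCTAGAC was found in Smad6 and in 0.213% of all 32851 promoters. GGCGCC was found in Grem1, Chrd and Id2 and in 11.9% of all promoters. TGACG was found in Id3 and Chrd and in 20.8% of all promoters, and the whole element TGACGTCA, which contains it, in none of the 7 and in 1.79% of all promoters. A match describes the letters only and is no evidence of binding.

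Levels are given as CPM, read counts scaled to a common TMM-corrected library size, and, where genes are compared with each other, as CPM per kilobase of exon. Per kilobase, the order of the mean levels over the 10 libraries was Id3 (230 ± 124), Id1 (167 ± 84.8), Id2 (66.6 ± 26.8), Grem1 (10.4 ± 7.36), Bmp4 (9.47 ± 5.49), Smad6 (6.51 ± 2.48), Bmp2 (3.45 ± 0.900), Nog (2.32 ± 1.15), Chrd (1.60 ± 0.783) and Bmp6 (0.531 ± 0.617) CPM per kb (SD, n = 10). The only neighbours in this order whose ranges did not overlap were Id2, at 37.8 to 122 CPM per kb, and Grem1, at 3.99 to 25.7 CPM per kb. The 3 Id genes were the most abundant of the 10. Bmp4 made up 64.3 to 77.9% of the ligand sum per kilobase in 8 libraries, and 47.6 and 41.4% in the tdTomato+ and eGFP+ DMSO libraries numbered 1, and Grem1 made up 39.7 to 88.9% of the antagonist sum.

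**Figure D1:**
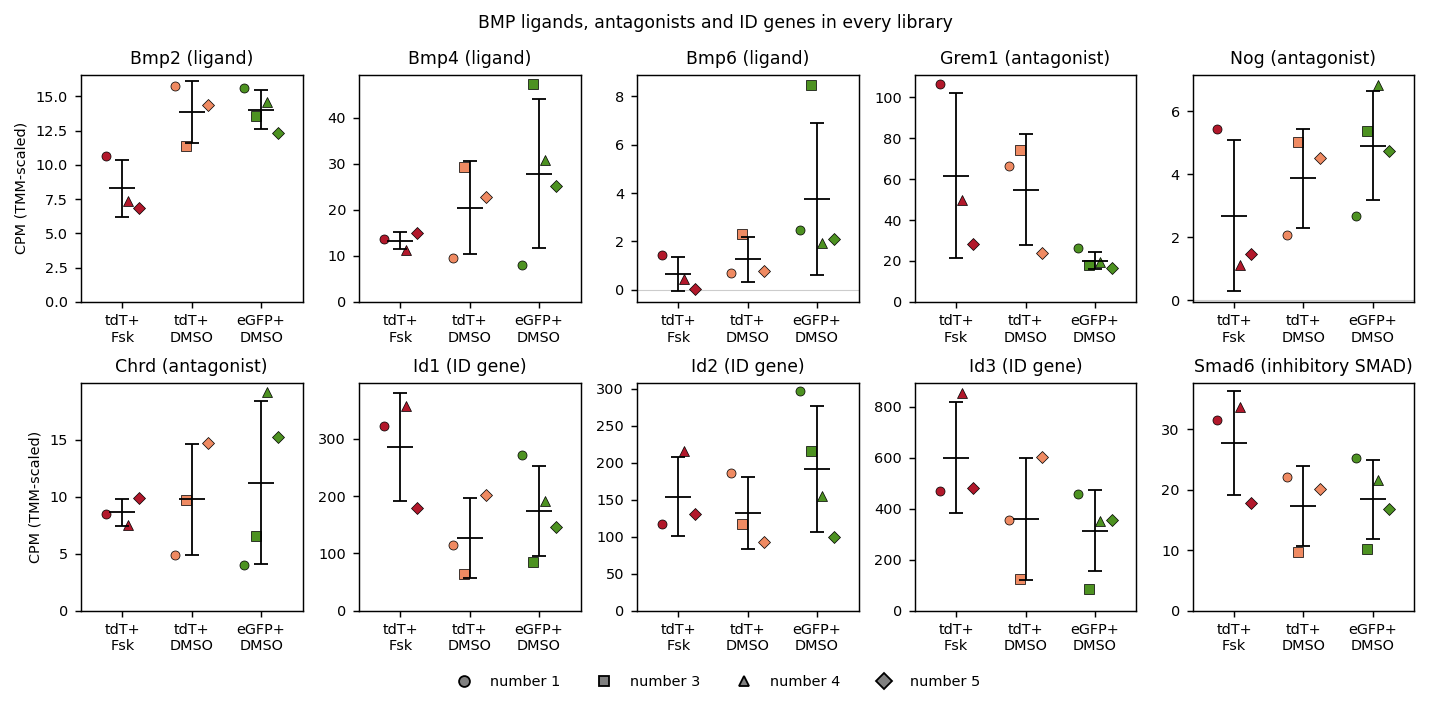
Level of each of the 10 genes in every library, in CPM on TMM-scaled library sizes; each symbol is 1 library and its shape gives the replicate number, and bars are the group mean ± SD. Bmp2 in the 3 tdTomato+ Fsk libraries lies below all 7 DMSO libraries. Grem1 has its lowest mean in the eGFP+ DMSO libraries, at 16.6 to 26.1 CPM, a range that also holds tdTomato+ DMSO 5 at 23.7 CPM.

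Of the 3 ligands among the 10 genes, Bmp2 was the one whose Fsk libraries lay apart from all DMSO libraries. This ligand drives cartilage and bone differentiation. It was at 10.7, 7.36 and 6.83 CPM in tdTomato+ Fsk libraries, at 15.8, 11.4 and 14.4 CPM in tdTomato+ DMSO libraries and at 15.6, 13.6, 14.6 and 12.3 CPM in eGFP+ DMSO libraries. All 3 Fsk libraries lay below all 7 DMSO libraries, and the 2 DMSO groups overlapped. The log2 fold change was -0.74 (SE 0.34) for Fsk against DMSO in tdTomato+ cells, with an unadjusted p of 0.0475 and an adjusted p of 0.469, and -0.02 (SE 0.32) for tdTomato+ against eGFP+ DMSO cells (edgeR's quasi-likelihood test, Benjamini-Hochberg adjustment over 16169 genes). Between same-numbered tdTomato+ libraries, the Fsk level was 0.676 times the DMSO level for number 1 and 0.475 times for number 5. As these groups did not overlap, any pairing would give lower Fsk levels, so the pairs add nothing to that. Bmp5, Bmp7 and Gdf10, ligands outside the 10 genes, also lay lower in all Fsk libraries than in all DMSO libraries. Of all genes tested, 7.98% had all Fsk libraries below all tdTomato+ DMSO libraries.

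Bmp4, a ligand of early mesoderm and skeletal condensations, had the highest mean of these ligands per kilobase. It was at 13.6, 11.3 and 15.004 CPM in tdTomato+ Fsk libraries, at 9.43, 29.3 and 22.8 CPM in tdTomato+ DMSO libraries and at 7.99, 47.4, 30.8 and 25.2 CPM in eGFP+ DMSO libraries. The groups overlapped, because the DMSO library numbered 1 was the lowest of its group in both reporters and lay under every Fsk library. Its 95% interval for Fsk against DMSO in tdTomato+ cells ran over a log2 fold change of -1.79 to 0.55, around a value of -0.62. Between the DMSO groups the value was -0.44, with an interval of -1.54 to 0.65.

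Bmp6, a ligand linked to cartilage maturation and to iron sensing in the liver, was close to the detection limit. It was at 1.45, 0.450 and 0.0495 CPM in tdTomato+ Fsk libraries (24, 8 and 1 reads), at 0.678, 2.33 and 0.759 CPM in tdTomato+ DMSO libraries and at 2.48, 8.48, 1.93 and 2.12 CPM in eGFP+ DMSO libraries. The tdTomato+ groups overlapped, and all 3 Fsk libraries lay below all 4 eGFP+ libraries. Within each number that both DMSO groups hold, the tdTomato+ level was lower, at 0.273, 0.274 and 0.359 times the eGFP+ level for numbers 1, 3 and 5. The log2 fold change between the DMSO groups was -1.57 (SE 0.91), with an adjusted p of 0.9995 in edgeR. Bmp6 shares 224 exonic bases with Txndc5 on the opposite strand, a gene with 59891 reads in all against 340 for Bmp6, and whether counting used strand is not stated in the sources, so its values are uncertain.

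Grem1, whose product gremlin 1 binds BMP2 and BMP4, had a higher mean in both tdTomato+ groups than in eGFP+ cells. It was at 107, 49.9 and 28.4 CPM in tdTomato+ Fsk libraries, at 66.6, 74.4 and 23.7 CPM in tdTomato+ DMSO libraries and at 26.1, 18.2, 19.4 and 16.6 CPM in eGFP+ DMSO libraries. The Fsk libraries all lay above the eGFP+ libraries, the tdTomato+ DMSO library numbered 5 lay under the highest eGFP+ library, and the 2 tdTomato+ groups overlapped. Within numbers 1, 3 and 5, the tdTomato+ DMSO level was 2.55, 4.09 and 1.43 times the eGFP+ DMSO level, higher in 3 of 3 pairs. The log2 fold change between the DMSO groups was 1.45 (SE 0.45), with an unadjusted p of 0.00682 and an adjusted p of 0.9995 in edgeR. For tdTomato+ Fsk against eGFP+ DMSO cells it was 1.62 (SE 0.45), with an adjusted p of 0.119 in edgeR. Without tdTomato+ Fsk 1 that value was 0.97. Between same-numbered libraries the Fsk level was 4.08, 2.58 and 1.71 times the eGFP+ DMSO level. As these groups did not overlap, any pairing would give higher Fsk levels, so the pairs add nothing to that.

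Noggin, the product of Nog, binds BMPs with high affinity and is needed for joint formation in the mouse. Nog was at 5.46, 1.12 and 1.49 CPM in tdTomato+ Fsk libraries, at 2.08, 5.02 and 4.51 CPM in tdTomato+ DMSO libraries and at 2.69, 5.39, 6.84 and 4.75 CPM in eGFP+ DMSO libraries. The groups overlapped in every comparison. Fsk 1 stood high among the Fsk libraries, while the libraries numbered 1 were the lowest of both DMSO groups, so the Fsk level was 2.62 times the tdTomato+ DMSO level for number 1 and 0.329 times for number 5.

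Chordin, the product of Chrd, is a BMP-binding protein cleaved by tolloid proteinases. Chrd was at 8.49, 7.53 and 9.85 CPM in tdTomato+ Fsk libraries, at 4.90, 9.72 and 14.7 CPM in tdTomato+ DMSO libraries and at 3.99, 6.54, 19.2 and 15.2 CPM in eGFP+ DMSO libraries. All groups overlapped, and the Fsk libraries lay within the range of each DMSO group. Its log2 fold changes were between -0.38 and -0.18 in the 3 comparisons, and the sign turned in each with at least 1 library left out.

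Summed per kilobase, the 3 antagonists reached 30.3, 13.9 and 9.29 CPM per kb in tdTomato+ Fsk libraries, 18.1, 22.5 and 10.7 CPM per kb in tdTomato+ DMSO libraries and 8.52, 8.61, 11.8 and 9.22 CPM per kb in eGFP+ DMSO libraries. The 3 ligands summed to 8.42 ± 1.13, 13.3 ± 4.11 and 17.3 ± 7.68 CPM per kb in the same groups (SD, n = 3, 3 and 4). Their quotient, antagonists over ligands, averaged 2.07 ± 1.07 in tdTomato+ Fsk cells, 1.38 ± 0.653 in tdTomato+ DMSO cells and 0.640 ± 0.276 in eGFP+ DMSO cells, and it overlapped between the 2 DMSO groups and between the 2 tdTomato+ groups. In the Fsk libraries it was 1.08 to 3.21, and in the eGFP+ libraries 0.318 to 0.992. Grem1 made up 81.7 ± 7.04% of the antagonist sum in tdTomato+ Fsk cells, 74.0 ± 18.5% in tdTomato+ DMSO cells and 51.9 ± 15.4% in eGFP+ DMSO cells. These sums describe transcripts of genes picked by name and were not tested. They leave out other ligands, such as Bmp5 and Bmp7, with means of 9.42 and 4.90 CPM per kb over all libraries. They also leave out other extracellular modulators, such as Nbl1 and Fst, with means of 122 and 17.3 CPM per kb. The quotient is therefore not a balance of all antagonists and ligands in these cells.

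Id1, a target of BMP-activated SMADs, had the largest fitted difference between the tdTomato+ groups among the Id genes and Smad6. It was at 322, 358 and 178 CPM in tdTomato+ Fsk libraries, at 114, 63.6 and 203 CPM in tdTomato+ DMSO libraries and at 272, 85.2, 191 and 146 CPM in eGFP+ DMSO libraries. Fsk 5 lay under tdTomato+ DMSO 5, so the groups overlapped, and the Fsk level was 2.81 times the DMSO level for number 1 but 0.881 times for number 5. The log2 fold change for Fsk against DMSO in tdTomato+ cells was 1.17 (SE 0.49), with an unadjusted p of 0.0336 and an adjusted p of 0.410 in edgeR.

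Id3, a target with the same helix-loop-helix fold, was the most abundant of the 10 genes. It was at 468, 853 and 479 CPM in tdTomato+ Fsk libraries, at 354, 122 and 602 CPM in tdTomato+ DMSO libraries and at 456, 85.2, 353 and 354 CPM in eGFP+ DMSO libraries. The Fsk libraries overlapped the tdTomato+ DMSO libraries and lay just above the eGFP+ libraries, where the nearest 2 values were 468.1 CPM in Fsk 1 and 456.5 CPM in eGFP+ 1. The log2 fold change was 0.74 (SE 0.62) for Fsk against DMSO in tdTomato+ cells and 0.94 (SE 0.57) for tdTomato+ Fsk against eGFP+ DMSO cells, with adjusted p of 0.768 and 0.594 in edgeR.

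Id2, which responds to BMP and to other signals, had a different order over the libraries from Id1 and Id3. It was at 117, 216 and 130 CPM in tdTomato+ Fsk libraries, at 186, 117 and 92.1 CPM in tdTomato+ DMSO libraries and at 297, 215, 155 and 99.0 CPM in eGFP+ DMSO libraries. All groups overlapped. Within numbers 1, 3 and 5 the tdTomato+ DMSO level was 0.626, 0.543 and 0.930 times the eGFP+ DMSO level, and the log2 fold change between these groups was -0.54, with a 95% interval of -1.42 to 0.34. Id2 made up 9.84 ± 1.56% of the Id sum per kilobase in tdTomato+ Fsk cells, 18.5 ± 10.7% in tdTomato+ DMSO cells and 22.0 ± 13.9% in eGFP+ DMSO cells.

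Smad6, which blocks receptor SMADs and is itself a BMP target, was at 31.6, 33.6 and 17.8 CPM in tdTomato+ Fsk libraries, at 22.1, 9.67 and 20.04 CPM in tdTomato+ DMSO libraries and at 25.3, 10.1, 21.6 and 16.8 CPM in eGFP+ DMSO libraries. Fsk 1 and Fsk 4 lay above all DMSO libraries and Fsk 5 within both DMSO groups. The log2 fold change for Fsk against DMSO in tdTomato+ cells was 0.68, with a 95% interval of -0.24 to 1.60.

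The first comparison, Fsk against DMSO in tdTomato+ cells, asks what the agent does within 1 reporter population. Of the 10 genes, 0 passed an adjusted p of 0.05 in edgeR, against 0.569% of the 16169 genes tested, which were 92 genes, 48 of them higher and 44 lower with Fsk. None of the 10 passed in DESeq2, which called 566 genes, or in limma-voom, which called 74. At an unadjusted p below 0.05 there were 2 of the 10, Bmp2 and Id1, against 10.4% of all genes. Groups that did not overlap were found for 1 of the 10, Bmp2, against 17% of all genes, or 7.98% in the same direction, lower with Fsk. The median log2 fold change of the 10 was -0.01, with 5 positive and 5 negative, and that of all genes was -0.03. The 3 ligands and Nog and Chrd had negative values, and the 3 Id genes, Smad6 and Grem1 positive ones, but the signs of Grem1, Id2 and Chrd turned with 1 library left out.

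The second comparison, tdTomato+ against eGFP+ cells in DMSO, asks how the reporter populations differ without the agent. None of the 16169 genes passed in edgeR (0%), where 221 (1.37%) had an unadjusted p below 0.05, and 0 passed in limma-voom and 13 in DESeq2. With the replicate numbers as a block 14 genes passed (0.0866%), or 68 when only the shared numbers were used, and the 10 genes were not among them. Of the 10, 0 passed in any of these fits. In edgeR an unadjusted p below 0.05 was found for Grem1 alone without the block, and with the block for Grem1 (edgeR unadjusted p = 0.00154) and Bmp6 (unadjusted p = 0.0334), against 4.78% of all genes. Of the 10, 0 had groups that did not overlap, against 2.75% of all genes. With the block, Grem1 stood at 1.25 ± 0.31 (log2 fold change ± SE, edgeR adjusted p = 0.461) and Bmp6 at -1.71 ± 0.71 (adjusted p = 0.835). The median of the 10 was -0.27, with 8 negative and 2 positive, beside 0.02 for all genes.

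The third comparison, tdTomato+ Fsk against eGFP+ DMSO cells, shares its libraries with the other two and differs in both reporter and treatment. Of the 10 genes, 0 passed in edgeR, where 3 (Grem1, Bmp6 and Bmp2) had an unadjusted p below 0.05, against 1.36% of all genes past the adjusted threshold and 11.9% past the unadjusted one. In DESeq2 1 gene passed, Grem1 (log2 fold change 1.61, adjusted p = 0.0252), against 4.95% of all genes with an adjusted p, and in limma-voom 0 passed. Grem1 also passed in edgeR with the replicate block on all libraries (1.51, edgeR adjusted p = 0.0113), where 820 genes passed. It passed too in edgeR with no filter on low counts. The groups did not overlap for 4 of the 10, against 11.8% of all genes: Grem1 and Id3 were higher (6.59% of all genes) and Bmp2 and Bmp6 lower (5.16% of all genes) in all 3 Fsk libraries than in all 4 eGFP+ libraries. The median of the 10 was -0.35, beside -0.01 for all genes.

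**Figure D2:**
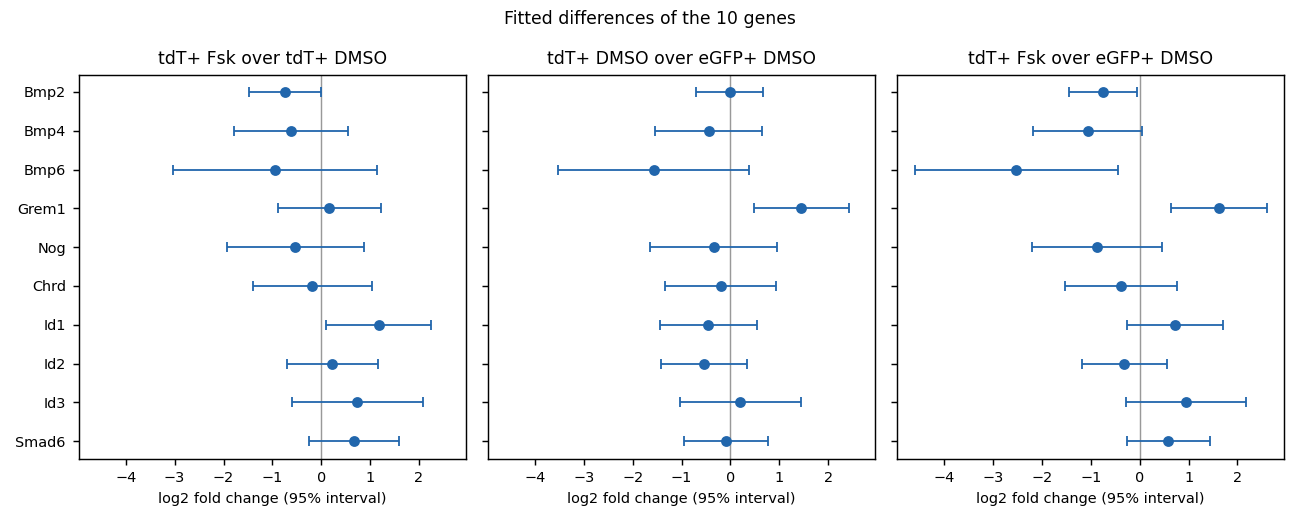
Fitted log2 fold change of each of the 10 genes in the 3 comparisons, with its 95% interval, from edgeR's quasi-likelihood fit to all 10 libraries. No gene passed the adjusted threshold; intervals that leave out 0 are those of Bmp2 and Id1 for Fsk against DMSO in tdTomato+ cells, of Grem1 for tdTomato+ against eGFP+ DMSO cells, and of Bmp2, Bmp6 and Grem1 for tdTomato+ Fsk against eGFP+ DMSO cells.

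Among the DMSO libraries, each of the 10 genes had its lowest or its highest library under the same replicate number in both reporter populations, and so did 79.8% of all 16169 genes tested, so this is not particular to the BMP genes. The lowest library had the same number for 8 of the 10 (58.8% of all genes) and the highest for 5 of the 10 (56.9%). Id1, Id3 and Smad6 were lowest in the library numbered 3 in both populations, where Id3 stood at 122 CPM in tdTomato+ cells and 85.2 CPM in eGFP+ cells. Bmp4, Nog and Chrd were lowest in number 1 in both, Bmp4 and Bmp6 were highest in number 3 in both, and Id2 was highest in number 1 and lowest in number 5 in both. What a number marks is not stated in the labels. The library eGFP+ DMSO 3 also had the fewest genes with a read, 16626, while tdTomato+ DMSO 3, where Id1, Id3 and Smad6 were also lowest, had 22998. The part of this difference between libraries in the pattern was not tested. With both libraries numbered 3 left out, 0 of the 10 genes passed in each comparison.

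**Figure D3:**
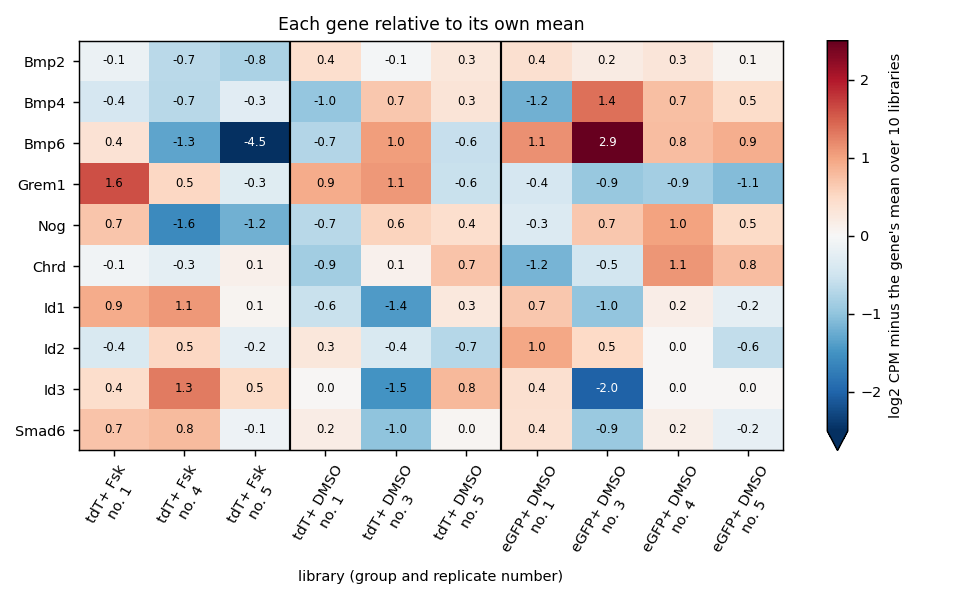
Each gene's log2 CPM in every library minus its own mean over the 10 libraries, as a colour and a number; red is above and blue below the mean, and values beyond the colour scale are printed in their cell. The columns numbered 3 are blue for Id1, Id3 and Smad6 in both DMSO groups, and the columns numbered 1 are blue for Bmp4, Nog and Chrd in both.

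The 10 genes fell into patterns that can be described by their likeness over the 10 libraries, measured as Pearson's r of log2 CPM among 10458 genes with a mean of at least 5 CPM. These values carry no test, and the points share library, depth and scaling. Set against the members with a mean of at least 5 CPM, which leaves out Bmp6 and Nog as partners, Id1 and Smad6 were most alike (r = 0.93), and Id3 was most like Smad6 (r = 0.89), while Id2's closest member was Smad6 at 0.20. Nog was most like Bmp4 (r = 0.69) and Bmp6 most like Bmp2 (r = 0.64), and the highest value of Grem1 was 0.28. Over all genes, the 2 most alike to Bmp2 were Pth1r, a parathyroid hormone receptor gene of growth plate and bone (r = 0.97), and Spryd3 (r = 0.96). Osbpl2 (r = 0.97) was the gene most like Bmp4. For Bmp6 the 2 most alike were Krt19, a keratin gene (r = 0.96), and Dlk1, a Notch-related membrane protein gene (r = 0.93), for Grem1 Atat1 (r = 0.88) and Tpr (r = 0.87), for Nog Pdgfb, a growth factor gene (r = 0.99), and Pgrmc2 (r = 0.88), and for Chrd Fgf18, a growth factor gene of cartilage (r = 0.94), and Cyp26a1, a retinoic acid-degrading enzyme gene (r = 0.93). For Id1 they were Ccdc91 (r = 0.94) and Pheta1 (r = 0.93), for Id2 Qdpr (r = 0.98) and Chchd1 (r = 0.97), for Id3 Eid2b and Acaa2 (both r = 0.98), and for Smad6 Vmac (r = 0.99) and Dhrs1 (r = 0.98).

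The other genes of the pathway were followed in a list of 55, of which 46 were tested. None passed in edgeR for Fsk against DMSO in tdTomato+ cells, where 13 of the 46 had an unadjusted p below 0.05 (10.4% of all genes) and DESeq2 called 5 and limma-voom 0. None passed in edgeR for tdTomato+ against eGFP+ DMSO cells either, where 3 had an unadjusted p below 0.05 (1.37% of all genes) and DESeq2 and limma-voom called 0. For tdTomato+ Fsk against eGFP+ DMSO cells 4 of the 46 passed in edgeR (1.36% of all genes), 1 higher and 3 lower. In that comparison 16 had an unadjusted p below 0.05 (11.9% of all genes), 15 had groups that did not overlap (11.8%), DESeq2 called 10 (4.95%) and limma-voom called 1. The median log2 fold change of the 46 was -0.26, 0.17 and -0.16 in the 3 comparisons, beside -0.03, 0.02 and -0.01 for all genes. Leaving out any 1 Fsk library, or eGFP+ DMSO 4, left 0 of the 4 past the threshold, and leaving out eGFP+ DMSO 3 left 2 genes past it.

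Among the other ligands, all 6 tested genes had negative values in both comparisons with Fsk in the fit without replicate numbers, though not all with them, with medians of -1.34 against tdTomato+ DMSO cells and -1.96 against eGFP+ DMSO cells. Bmp7, a ligand with roles in bone and kidney, was lower in tdTomato+ Fsk cells, at 6.85, 6.97 and 6.04 CPM, against 38.3, 39.9, 26.3 and 12.8 CPM in eGFP+ DMSO cells (log2 fold change -2.15, SE 0.49, edgeR adjusted p = 0.0492). Gdf10, a divergent member of the family also known as BMP3B, was lower too, at 1.45, 1.80 and 1.39 CPM in tdTomato+ Fsk cells, against 6.13, 5.68, 27.9 and 31.8 CPM in eGFP+ DMSO cells (-3.53, SE 0.69, edgeR adjusted p = 0.0240). No Fsk library of either gene overlapped an eGFP+ library. In tdTomato+ DMSO cells the 2 genes lay between, at 16.5, 33.4 and 9.74 CPM for Bmp7 and at 2.55, 5.90 and 5.79 CPM for Gdf10. Neither passed for Fsk against DMSO in tdTomato+ cells. There Bmp7 gave -1.58 (SE 0.50, edgeR adjusted p = 0.215) and Gdf10 -1.62 (SE 0.67, edgeR adjusted p = 0.397). Bmp5, per kilobase the most abundant of these ligands, averaged 22.2 ± 6.47 CPM in tdTomato+ Fsk cells, 47.8 ± 13.6 CPM in tdTomato+ DMSO cells and 42.3 ± 9.28 CPM in eGFP+ DMSO cells, and did not pass in edgeR without the replicate numbers, with an adjusted p of 0.195 against tdTomato+ DMSO cells and 0.210 against eGFP+ DMSO cells.

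The 10 receptors and coreceptors and the 4 SMAD transducers held no gene past the threshold, with medians between -0.20 and 0.17 in the 3 comparisons. Bmpr1a, the type I receptor gene most abundant here, averaged 189 ± 72.5, 147 ± 19.8 and 165 ± 41.2 CPM in tdTomato+ Fsk, tdTomato+ DMSO and eGFP+ DMSO cells, and Smad4, the shared partner SMAD gene, 59.3 ± 3.69, 67.8 ± 11.8 and 65.4 ± 15.2 CPM. Of 11 tested extracellular modulators 1 passed: Sostdc1, a secreted antagonist of BMP and WNT signals. It was at 0.424, 0.506 and 0 CPM in tdTomato+ Fsk cells (7, 9 and 0 reads), against 2.19, 13.5 and 3.63 CPM in tdTomato+ DMSO cells and 5.72, 27.6, 14.7 and 5.93 CPM in eGFP+ DMSO cells. Its log2 fold change against eGFP+ DMSO cells was -5.44 (SE 1.06, edgeR adjusted p = 0.0240) and against tdTomato+ DMSO cells -4.38 (SE 1.04, adjusted p = 0.0945). Fstl1, a follistatin-like gene and the most abundant modulator per kilobase, averaged 1236 ± 158 CPM in tdTomato+ Fsk cells, 619 ± 133 CPM in tdTomato+ DMSO cells and 545 ± 161 CPM in eGFP+ DMSO cells, with adjusted p of 0.370 and 0.158 for Fsk against the 2 DMSO groups in that order.

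Of 8 other target genes 1 passed: Atoh8, a basic helix-loop-helix factor gene that responds to BMP, was higher in tdTomato+ Fsk cells, at 31.2, 58.0 and 30.5 CPM, against 16.8, 5.61, 10.4 and 10.1 CPM in eGFP+ DMSO cells (log2 fold change 1.89, SE 0.39, edgeR adjusted p = 0.0314). In tdTomato+ DMSO cells it was at 13.1, 9.16 and 14.3 CPM, below all Fsk libraries, and Fsk against DMSO gave 1.71 on the log2 scale (SE 0.43, adjusted p = 0.107). In that comparison 2 of the 8 target genes had positive and 6 negative values, with a median of -0.47. Dlx5 was lower with Fsk there, without overlap and without passing (log2 fold change -2.39, SE 0.60, edgeR adjusted p = 0.107). With the replicate block on all libraries Dlx5 passed (-2.85, edgeR adjusted p = 0.00326). So did the extracellular modulators Sostdc1 (-3.86), Fstl3 (-2.12) and Chrdl1 (-1.60), with edgeR adjusted p of 0.0108, 0.0367 and 0.0400. The other intracellular inhibitors held no gene past the threshold. Smad7, the most abundant of the 4 per kilobase, averaged 77.2 ± 19.5, 78.5 ± 22.4 and 60.1 ± 11.2 CPM in tdTomato+ Fsk, tdTomato+ DMSO and eGFP+ DMSO cells. The 3 E-protein genes whose products pair with Id proteins had positive values in all 3 comparisons, with no gene past the threshold. Tcf3, the most abundant of them per kilobase, averaged 147 ± 50.2 CPM in tdTomato+ Fsk cells, 95.3 ± 19.0 CPM in tdTomato+ DMSO cells and 76.3 ± 12.3 CPM in eGFP+ DMSO cells.

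**Figure D4:**
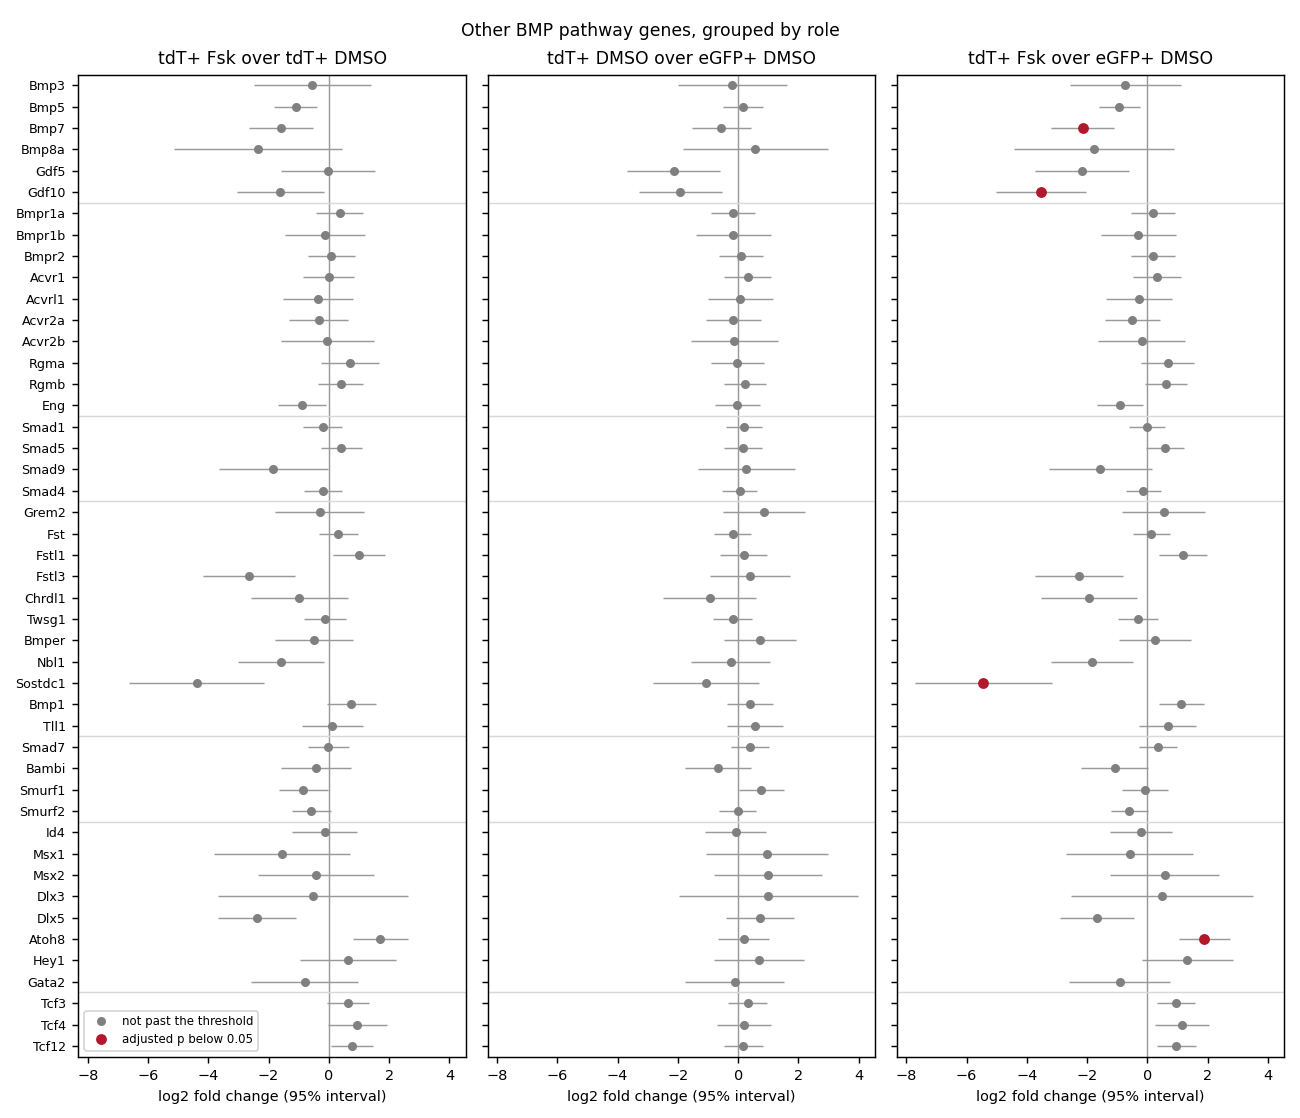
Fitted log2 fold change with its 95% interval for the 46 other BMP pathway genes tested, grouped by role (ligands, receptors and coreceptors, transducers, extracellular modulators, intracellular inhibitors, targets, E-proteins), in the 3 comparisons. Red points passed the adjusted threshold: Bmp7, Gdf10, Sostdc1 and Atoh8 for tdTomato+ Fsk against eGFP+ DMSO cells.

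Other features were followed in the same groups, and the range of each sum overlapped between at least 1 pair of groups. The 14 cartilage markers summed to 1042 to 2506 CPM in tdTomato+ Fsk and 2133 to 3064 CPM in tdTomato+ DMSO libraries. In eGFP+ DMSO libraries they summed to 3412 to 9579 CPM. Col11a1 had the highest mean of the 13 tested, at 1081, 1494 and 2630 CPM in the same order. Col2a1, for which the eGFP reporter is named, averaged 1681 CPM in eGFP+ cells. With Fsk, 9 of the 13 had negative and 4 positive values relative to tdTomato+ DMSO cells (median log2 fold change -1.02). The positive ones included Ucma (4.29) and Col9a3 (1.07), and none of the 13 passed there. The 8 cell cycle genes summed to 314 to 732, 125 to 162 and 131 to 323 CPM. The 8 osteoblast and hypertrophic markers summed to 4916 to 10075 CPM, 5025 to 38655 CPM and 7913 to 67743 CPM in the same groups, and 5 epithelial markers to 7.77 to 69.2 CPM, 3.23 to 26.0 CPM and 15.2 to 107 CPM. Spp1 made up most of the osteoblast sum, with means of 7260, 21241 and 42751 CPM. All 6 tested genes of that list had negative values for Fsk against DMSO in tdTomato+ cells (median log2 fold change -3.97). Of them 1 passed, Dmp1 (-4.30, SE 0.65, edgeR adjusted p = 0.0118). The 5 endothelial markers summed to 9.67 to 19.8 CPM, 10.01 to 34.0 CPM and 8.33 to 59.2 CPM, and the 5 blood markers to 8.62 to 20.8 CPM, 33.3 to 116 CPM and 26.7 to 133 CPM, with Hbb-bs at 0 in all libraries and Hba-a1 at 0 in all DMSO libraries. Only 2 genes of each of these 2 lists passed the filter. Each sum rested mainly on 1 gene: Erg averaged 11.4, 17.6 and 24.2 CPM and Cd68 15.3, 68.4 and 73.3 CPM. Pecam1 and Csf1r averaged at most 0.876 and 0.870 CPM. The sums therefore do not show cells of these types. Mitochondrially encoded genes held 3.46 to 5.84%, 2.13 to 4.94% and 2.92 to 4.39% of the counts. Their part in the results for the BMP genes was not tested. In bulk samples, fewer cells of a type and less RNA per cell cannot be told apart.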

How the data were processed

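Poly(A) RNA of 10 libraries was measured, and groups were taken from the sample titles. A raw count per gene and library, for 56748 genes in 1 table, is what the authors deposited. Trizol was used for extraction per the labels, and mm10 is the build named in the submitters' processing notes. Which aligner, counter, annotation and strand setting were used is not given in the sources used here. Overlapping genes are therefore uncertain. Within the 10 genes, Bmp4, Bmp6 and Chrd share exonic bases with a gene on the opposite strand in GENCODE M21.

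edgeR 4.0.16 in R 4.3.3 was run on the counts with filterByExpr by group, which left 16169 genes, TMM scaling, and a robust quasi-likelihood fit with group as the only term to all 10 libraries (7 residual degrees of freedom). Each of 3 comparisons was tested over all genes and adjusted by Benjamini-Hochberg, with a threshold of 0.05. Each standard error is the log2 fold change divided by the square root of F. Levels are CPM on TMM-scaled library sizes, per kilobase of the union of GENCODE M21 exons where genes are compared. Log2 CPM for likeness used a prior count of 2. The steps were tested on simulated data. The members and lists were chosen with earlier results of these data known. Genes outside the 10 were named where they passed the threshold in any comparison, where they had the highest level of their list, or where they were the 2 most alike to a member (1 of those for Bmp4 is not reported here), and Col2a1, Prg4 and Pde4b were named to check the labels.

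The replicate numbers were checked for pairing. Between tdTomato+ and eGFP+ DMSO libraries, deviations from the group means correlated at 0.492 to 0.649 in the 3 same-numbered pairs, over the bound of 0.1, and at most 0.177 in others, so the numbers pair these libraries. This pairing rests on the data: what a number marks is not stated in the labels. No replicates agreed within sampling noise (lowest chi-square per degree of freedom 86.1). Alternatives were DESeq2 1.42.0, limma-voom (limma 3.58.1), RLE scaling, a filter of at least 1 CPM in 3 libraries or none at all, a fit to the compared pair of groups alone, the replicate block and each library left out. Chosen after seeing the data were the removal of both libraries numbered 3, the removal of ribosomal RNA and mitochondrial genes, and all alternatives for the counts of other BMP pathway genes.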

Additional observations from a re-analysis of the deposited data

Results flagged for a closer look

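Bmp6 stood at 8.48 CPM in eGFP+ DMSO 3, far from the other 3 eGFP+ DMSO libraries, which lay between 1.93 and 2.48 CPM. The gap to the nearest of them was 0.916 of the group's range, above Dixon's 95% critical value for 4 samples. It was the only one of 10 such groups examined, 1 for each gene, and chance flags about 1 in 20.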

How the results depend on the processing

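Of the member values, 291 under other settings and 187 with 1 library left out kept their direction and their side of the threshold. None of the 10 genes passed under any alternative other than Grem1 for tdTomato+ Fsk against eGFP+ DMSO cells, which made the count 1 with DESeq2 (log2 fold change 1.61, adjusted p = 0.0252), with no filter on low counts (1.64, adjusted p = 0.00152) and with the replicate block on all libraries (1.51, edgeR adjusted p = 0.0113), over a range of 0.00152 to 0.545 for all alternatives. The causes of the changes were not tested, apart from fewer libraries where some were left out.

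Genes past the threshold for Fsk against DMSO in tdTomato+ cells were 92 and became 566 with DESeq2, 462 with no filter, 260 with only the 2 groups, 559 with the replicate block on the shared numbers, 508 with the block on all libraries and 50 without the libraries numbered 3; leaving out 1 library gave 22 to 75. For tdTomato+ against eGFP+ DMSO cells 0 became 13 with DESeq2, 18 with no filter, 68 with the block on shared numbers and 14 with the block on all libraries, and stayed at 0 to 0 with 1 library left out. For tdTomato+ Fsk against eGFP+ DMSO cells 220 became 798 with DESeq2, 800 with no filter and 820 with the block on all libraries, and 51 to 469 with 1 library left out: 58, 78 and 51 without Fsk 1, 4 and 5, and 80 and 469 without eGFP+ 4 and 5.

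Other BMP pathway genes past the threshold for Fsk against DMSO in tdTomato+ cells were 0 and became 5 with DESeq2, 5 with no filter, 3 with only the 2 groups, 5 with the block on shared numbers, 4 with the block on all libraries and 1 without the libraries numbered 3, and 0 to 0 with 1 library left out. For tdTomato+ against eGFP+ DMSO cells 0 became 1 with the block on shared numbers. For tdTomato+ Fsk against eGFP+ DMSO cells 4 became 10 with DESeq2, 1 with limma-voom, 9 with no filter and 10 with the block on all libraries, and 0 to 6 with 1 library left out.

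Signs turned under the replicate block on shared numbers for Fsk against DMSO in tdTomato+ cells for Chrd (0.084) and Id2 (-0.098). Between the DMSO groups Chrd turned with the block on shared numbers (0.26) and on all libraries (0.050), Smad6 with the block on all libraries (0.060), and Bmp2 without the libraries numbered 3 (0.081). With 1 library left out the log2 fold changes that turned ran over -0.48 to 0.52 for Grem1, -0.49 to 0.24 for Chrd and -0.090 to 0.57 for Id2 for Fsk against DMSO in tdTomato+ cells. Between the DMSO groups they ran over -0.13 to 0.10 for Bmp2, -0.62 to 0.18 for Chrd, -0.39 to 0.61 for Id3, -0.31 to 0.19 for Smad6 and -0.036 to 0.48 for Atoh8, and for tdTomato+ Fsk against eGFP+ DMSO cells over -0.66 to 0.00036 for Chrd. Dropping the filter moved the median of all genes by -0.16 for Fsk against DMSO in tdTomato+ cells and by 0.10 between the DMSO groups.

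In comparisons with Fsk the replicate numbers were not shown to pair the libraries: same-numbered correlations were 0.109 and 0.403 in 2 pairs against tdTomato+ DMSO cells (0.312 in others at most) and from 0.0703 against eGFP+ DMSO cells. The block on all libraries changed no other call of the 10 genes. Among the other ligands it called Bmp5 for tdTomato+ Fsk against eGFP+ DMSO cells (-1.07, edgeR adjusted p = 0.0454) and turned the sign of Bmp3 there (0.64) and of Bmp3 (0.75) and Gdf5 (0.78) for Fsk against DMSO in tdTomato+ cells. Low counts limit Bmp6 and Nog most, with 1 to 24 and 20 to 90 reads in Fsk libraries.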
